A study of Mus musculus with 24 samples.

Results

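Vincristine was added to a fasting-mimicking diet (FMD) in mice injected with leukemia cells. The spleens of 6 mice given both (FMD + VC, mice 21, 29, 30, 42, 45 and 46) were compared with those of 6 mice given the diet and vehicle (FMD, mice 7, 8, 9, 11, 26 and 34). These are 12 of the 24 libraries of the series, 1 library per mouse, chosen by their treatment label. All 24 mice were male C57BL/6J animals, 20 weeks old at the age the labels give, and all carried B cell acute lymphoblastic leukemia (B-ALL) grown from injected GFP-expressing BCR-ABL cells of the same strain. There was no group without leukemia and none without injected cells. The other 12 mice had food at will with vehicle (AL) or with vincristine (AL + VC) and are used here to ask whether an effect of vincristine differed with the diet. The values are regularized log2 (rlog) values per gene. The read depth of each library is unknown, and all errors are those between mice.

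Vincristine is a vinca alkaloid that binds tubulin and blocks the assembly of microtubules. A cell that cannot build a mitotic spindle is held in mitosis by the spindle assembly checkpoint and often dies there, so the drug acts mainly on dividing cells and is a standard part of B-ALL treatment. BCR-ABL is a fusion tyrosine kinase that, among other pathways, activates the transcription factor STAT5. The spleen holds follicles of resting mature B cells, T cell zones, and a red pulp of macrophages where mice also make red cells, granulocytes and platelets, and leukemic cells can occupy all of it. In whole spleen, fewer cells of a type and less RNA per cell cannot be told apart.

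In whole spleen, levels of genes of resting B and T lymphocytes rose with vincristine and those of mitosis and DNA replication fell. The paper warns that spleens without vincristine held more leukemic cells, which might confound gene levels set against those of treated spleens. What part that burden had in the changes below was not tested. Of 16557 genes whose mean rlog reached 3.32, the log2 of a count of 10, 3888 (23.5%) passed a limma adjusted p of 0.05 between FMD + VC and FMD. Of these, 2085 (12.6% of those tested) rose and 1803 (10.9%) fell. The change exceeded a log2 value of 1 in 316 genes that rose and 565 that fell. In 987 genes (5.96%) every FMD + VC mouse was above every FMD mouse, and in 854 (5.16%) every one was below. Counts of list members given below are to be read beside these shares. The genes of the 15 largest rises and 15 largest falls were named only where the groups did not overlap. For them the lack of overlap is no finding. Among them are Cr2, Ms4a1, Fcer2a, Fcmr, Cd8b1, Cd8a, Cd3e, Cd3d, Dapl1, Cd209a, Cish, Tfrc and Cpa3. The median log2 fold change over all tested genes was -0.01. Leaving out each of the 12 mice in turn kept 2331 of the calls (60.0%) in every fit. With library weights 4657 genes rose and 4682 fell, in a fit that leans on some mice. In FMD + VC the weight was 7.29 for mouse 29 and 0.55 for mouse 45. In FMD it was 3.10 for mouse 26 and 0.37 for mouse 9.

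The first principal component of the 12 spleens held 46.7% of the variance and separated the groups without overlap. FMD mice scored between -49.3 and -12.6. Mouse 45 scored 4.43 and mouse 42 scored 25.6, while the other FMD + VC mice lay between 38.7 and 41.1. The second component, with 19.3% of the variance, spread the FMD mice, from -48.7 in mouse 9 and -36.5 in mouse 11 to 27.0 in mouse 8 and 32.7 in mouse 34. All FMD + VC mice lay between -2.58 and 3.73 on it. The median SD of a gene was 0.234 within FMD and 0.187 within FMD + VC, and it was larger within FMD for 64.3% of the genes. With mice 9, 11, 42 and 45 left out, 1691 genes rose and 1675 fell.

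**Figure D1:**
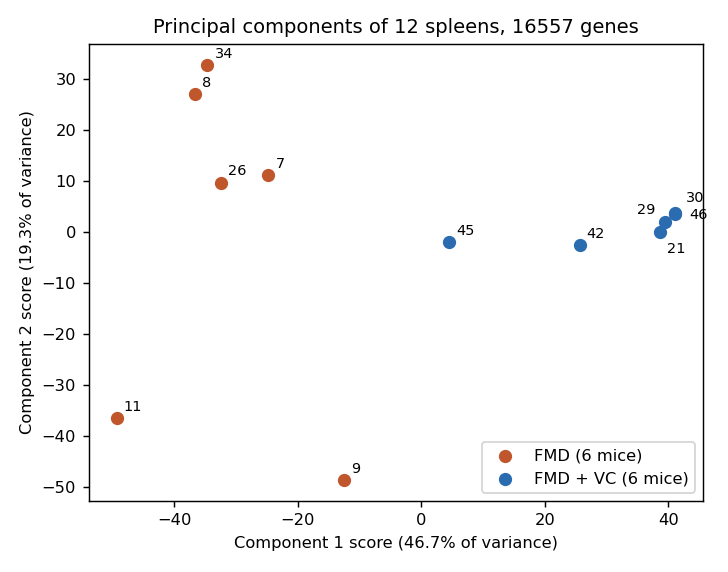
Scores of the 12 spleens on the first (x axis) and second (y axis) principal component of 16557 genes, with mouse numbers and the share of variance on each axis. The groups do not overlap on the first component, where mouse 45 (4.43) is the FMD + VC mouse nearest to FMD, and FMD mice 9 and 11 lie apart from the other FMD mice on the second.

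Xist moved with the groups in a way that the labels do not give. Xist, the RNA that coats the inactive X chromosome of female cells, was high in spleens labelled male. Its rlog value was 12.43 at the lowest, 14.95 at the median and 15.28 at the highest in FMD, and 10.45, 10.51 and 12.99 in FMD + VC. The groups overlapped only through FMD mouse 9, the lowest of its group, and FMD + VC mouse 45, the highest of its group. Xist was 10.2-fold lower in FMD + VC (log2 fold change -3.35, limma adjusted p = 0.00479). The Y-linked genes Kdm5d (1.16), Ddx3y (0.88), Uty (0.82) and Eif2s3y (0.79) rose, given as log2 fold changes, each with overlapping groups. With Xist itself as a covariate in the fit, 1 gene rose and none fell, against 2085 and 1803 without it, and 1567 genes had an unadjusted p under 0.05. The gene was Cd226, described below. None of the listed genes described in the following paragraphs passed the test in that fit, while 3526 of the 3888 calls kept their sign. The median size of change over the 3888 calls was 0.25 in that fit and 0.65 without the covariate, in log2. Xist itself nearly separates the groups, so as a covariate it takes up much of the difference between them. The fit therefore cannot separate the counts below from the level of Xist, and the loss of calls does not show that they depend on it. What part the source of Xist had in these changes was not tested.

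Mature B cell genes rose almost as a block. Of 16 genes for the surface of mature B cells, 15 rose, none fell and 1 did not pass, beside 12.6% and 10.9% of all tested genes, and their median log2 fold change was 1.28 against -0.01 over all genes. Without mice 9, 11, 42 and 45, 14 of the 16 rose. Cr2, the complement receptor that is abundant on follicular and marginal zone B cells (GRCm38, chr1:195136811-195176716), was at 10.83, 11.00 and 12.07 in FMD and at 12.88, 13.21 and 13.35 in FMD + VC, as the lowest, median and highest rlog value. Every FMD + VC mouse was above every FMD mouse, of which mouse 9 was the highest. Cr2 rose 3.90-fold (log2 1.96, 95% interval 1.37 to 2.56, limma adjusted p = 0.00113).

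Ms4a1, which codes for the antigen CD20 (chr19:11249675-11266241), was at 10.47, 10.72 and 11.79 in FMD and at 12.18, 12.77 and 12.83 in FMD + VC. Again the groups did not overlap and mouse 9 was the highest FMD mouse. It rose 3.46-fold (adjusted p = 0.00163). Fcer2a, the low-affinity IgE receptor CD23 of follicular B cells, rose 4.49-fold, the largest change of the list, from a median of 8.61 to one of 11.15. Fcmr, an Fc receptor for IgM, rose 3.79-fold. Cd79a and Cd79b, the signalling chains of the B cell receptor, rose by log2 values of 1.31 and 1.25, and Cd22, an inhibitory B cell receptor, by 1.23. Tnfrsf13b, which codes for the receptor TACI, did not pass (log2 0.39, adjusted p = 0.0722).

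Among 10 transcription factors of the B lineage, 8 rose, none fell and 2 did not pass, with a median of 1.04. Pax5, which commits cells to the B lineage and is also made by pre-B cells, was at 11.18, 11.43 and 12.46 in FMD and at 12.44, 12.92 and 13.13 in FMD + VC, so that the groups overlapped only by mouse 9. It rose 2.49-fold (adjusted p = 0.00261). Ikzf3, which codes for Aiolos, rose 2.78-fold, Bach2, a repressor of the plasma cell programme, by a log2 value of 1.24, and Foxo1 by 1.12. Irf8 (0.53, adjusted p = 0.303) and Bcl11a (0.20, adjusted p = 0.259) did not pass.

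Of 12 immunoglobulin constant region genes, 7 rose, 1 fell and 4 did not pass. Ighd, the IgD chain of naive B cells, rose by a log2 value of 1.37, from 11.18, 11.51 and 12.60 in FMD to 12.49, 13.08 and 13.27 in FMD + VC, with mouse 9 as the only FMD mouse inside the range of FMD + VC. Ighm rose by 1.01, Igkc by 1.01, Iglc2 by 1.54 and Igha by 1.33. Ighg1, the chain of switched IgG1, fell by 0.86 (adjusted p = 0.039), a call lost without FMD mouse 7, 8 or 34 or FMD + VC mouse 21, 30, 42 or 46, and Ighg2c (-0.13), Ighg2b (0.23), Ighg3 (0.91) and Ighe (-0.24) did not pass. Light chain constant regions are near copies of each other, and the sources used here do not say how the counting split reads between them. Plasma cell genes gave 2 rises among 8 tested, Irf4 (0.97) and Prdm1 (0.66), beside 12.6% of all tested genes that rose. The count was 1 without FMD mouse 11 or FMD + VC mouse 21 or 29. The joining chain Jchain did not pass (-0.33, adjusted p = 0.572).

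All 10 MHC class II genes rose, beside 12.6% of all tested genes, with a median log2 fold change of 1.16. In 7 of them the groups did not overlap, beside 5.96% of all tested genes with every FMD + VC mouse higher. Cd74, the invariant chain, was at 13.89, 14.14 and 14.93 in FMD and at 15.36, 15.49 and 15.73 in FMD + VC, a rise of 2.31-fold (adjusted p = 0.00359) without overlap. H2-Ab1 rose 2.42-fold and Ciita, the coactivator of the class II genes, 1.99-fold. B cells are the most numerous cells of spleen that carry class II, and dendritic cells and macrophages carry it too. In the MHC class I pathway 4 of 11 genes rose and none fell, with a median of 0.37. They were the proteasome subunits Psmb8 and Psmb10, the peptide loading protein Tapbp and B2m, by log2 values of 0.47, 0.52, 0.49 and 0.53. Without FMD mouse 9 or 11 or FMD + VC mouse 21, 29 or 46 the count was 2.

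**Figure D2:**
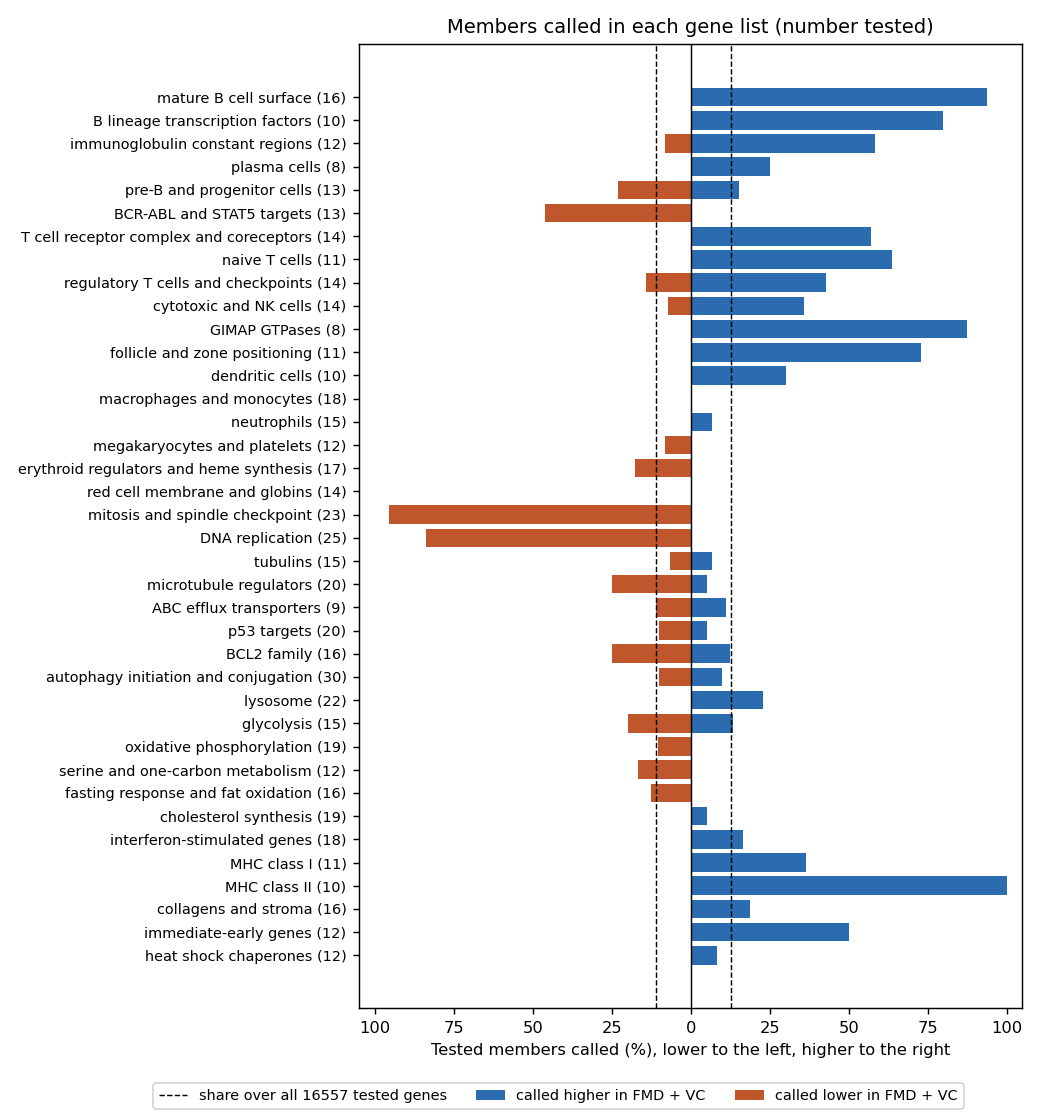
Share of tested members called lower (left) and higher (right) in FMD + VC than in FMD at a limma adjusted p under 0.05, for each gene list with at least 8 tested members, with the number tested in brackets and dashed lines at the shares over all 16557 genes (10.9% lower, 12.6% higher). All 10 MHC class II genes and 15 of 16 mature B cell genes rose, 22 of 23 mitotic genes fell, and no macrophage or red cell gene passed.

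T cell genes rose as well. Of 14 genes of the T cell receptor complex and its coreceptors, 8 rose, none fell and 6 did not pass, and the median was 1.09. Cd8b1, a chain of the CD8 coreceptor of cytotoxic T cells (chr6:71322788-71337494), was at 5.73, 6.24 and 7.28 in FMD and at 8.22, 8.90 and 9.51 in FMD + VC. The groups did not overlap and lay 0.93 apart at their closest on that scale. Cd8b1 rose 5.34-fold (log2 2.42, 95% interval 1.40 to 3.44, adjusted p = 0.00309), and Cd8a rose 3.76-fold.

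Cd3e, a signalling chain common to all T cells (chr9:44998740-45009627), was at 7.71, 7.96 and 8.87 in FMD and at 9.36, 9.91 and 10.43 in FMD + VC, again without overlap, and rose 3.61-fold (adjusted p = 0.00403). Cd3d and Cd3g rose by log2 values of 1.83 and 1.62. Cd4, which macrophages and dendritic cells can also express, was at 9.67, 10.05 and 11.49 in FMD and at 10.27, 10.84 and 11.13 in FMD + VC and did not pass (0.57, 95% interval -0.15 to 1.30, adjusted p = 0.238). The kinases Lck (0.45) and Zap70 (0.51), which act just below the receptor, did not pass either.

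Of 11 genes of naive T cells 7 rose, none fell and the median was 1.03. Dapl1, a gene of naive T cells, had the largest rise of all 16557 genes (chr2:59484653-59505020). It was at 3.13, 3.45 and 4.32 in FMD, near the minimum for testing, and at 5.11, 6.75 and 7.28 in FMD + VC. The rise was 7.79-fold without overlap (log2 2.96, adjusted p = 0.00206), and the rlog transform understates changes of such low genes. S1pr1, the sphingosine phosphate receptor that lets lymphocytes leave tissue, rose 3.19-fold, Ccr7, the homing receptor of the T cell zone, 2.58-fold, and Lef1 by a log2 value of 1.63. Tcf7 (-0.07) and Il7r (-0.11), also expressed by naive T cells, did not pass. The GIMAP GTPases, which support lymphocyte survival in mice, had 7 rises among 8 genes with a median of 0.88, led by Gimap7 at 1.25.

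Cytotoxic and regulatory genes moved in both directions. Prf1, which codes for perforin, rose 2.76-fold, from 4.99, 5.15 and 5.79 to 6.42, 6.77 and 7.06, without overlap (adjusted p = 0.00308), and the T-box factors Tbx21 (1.19) and Eomes (0.92) and the chemokine Ccl5 (1.00) rose. Gzma, which codes for granzyme A, fell 4.02-fold (adjusted p = 0.007), with overlapping groups at 6.07, 8.05 and 9.41 in FMD and 5.33, 5.92 and 7.48 in FMD + VC. Over the whole list of 14 genes of cytotoxic and NK cells, 5 rose, 1 fell and 8 did not pass. The rises were 3 without FMD mouse 34 or FMD + VC mouse 21 or 46, and the falls 2 without FMD mouse 9.

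Il2ra, the interleukin 2 receptor chain CD25, which regulatory T cells and also B-ALL blasts can carry, fell 3.88-fold, and Pdcd1, which codes for PD-1, fell 2.05-fold. Foxp3, the factor that defines regulatory T cells, rose 1.67-fold and Ikzf2, which many of them express, by a log2 value of 0.78. Il2ra lay between 9.77 and 12.86 in FMD and between 9.29 and 10.56 in FMD + VC, with overlap. Of the 14 genes of regulatory T cells and checkpoints, 6 rose, 2 fell and 6 did not pass. Without FMD mouse 8 only 3 rose, without FMD mouse 11 only 2, and without FMD mouse 34 only 1 fell. Cd274 (0.65) and Pdcd1lg2 (0.86), which code for ligands of PD-1, were among those that rose.

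The gene with the smallest adjusted p of the comparison was Cd226, an activating receptor of T and NK cells (chr18:89176967-89272229). It was at 6.91, 7.01 and 7.32 in FMD and at 7.90, 8.21 and 8.41 in FMD + VC. The groups lay 0.58 apart at their closest, and the SD was 0.17 in both. Cd226 rose 2.17-fold (log2 1.12, 95% interval 0.85 to 1.38, adjusted p = 0.000133). With Xist as a covariate its log2 fold change was 1.10 (adjusted p = 0.0366).

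Genes that place lymphocytes in follicles and zones rose in 8 of 11 cases and none fell. Cxcl13, the chemokine of follicular stroma that draws B cells, rose 2.64-fold, from 8.91, 9.42 and 9.87 to 10.60, 10.80 and 11.03, without overlap (adjusted p = 0.00268). Its receptor Cxcr5 rose by a log2 value of 0.95, and Ltb, a lymphotoxin chain made by lymphocytes, by 0.95. The T zone chemokine genes Ccl19 and Ccl21a were below the minimum. Among 16 genes of collagens and stroma 3 rose, Dcn (0.99), Acta2 (0.82) and Pecam1 (0.47), and none fell. Of all tested genes 12.6% rose, so the stroma count is near that share.

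Dendritic cell genes rose only in part, 3 of 10, with none falling, beside 12.6% of all tested genes that rose. Xcr1, the chemokine receptor of cross-presenting dendritic cells (chr9:123852315-123862029), was between 5.19 and 5.55 in all FMD mice and between 6.70 and 7.59 in all FMD + VC mice. It rose 3.35-fold (adjusted p = 0.00163). Clec9a, a receptor of the same cells, rose 1.97-fold and Cd209a, a lectin of other dendritic cells, 4.89-fold, both without overlap. Siglech, a gene of plasmacytoid dendritic cells, did not pass (0.17, adjusted p = 0.84) and was at 11.41 in FMD mouse 7 against a group median of 7.77. None of 18 macrophage and monocyte genes passed, and their median was -0.02. Without FMD mouse 7, 1 of them rose.

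**Figure D3:**
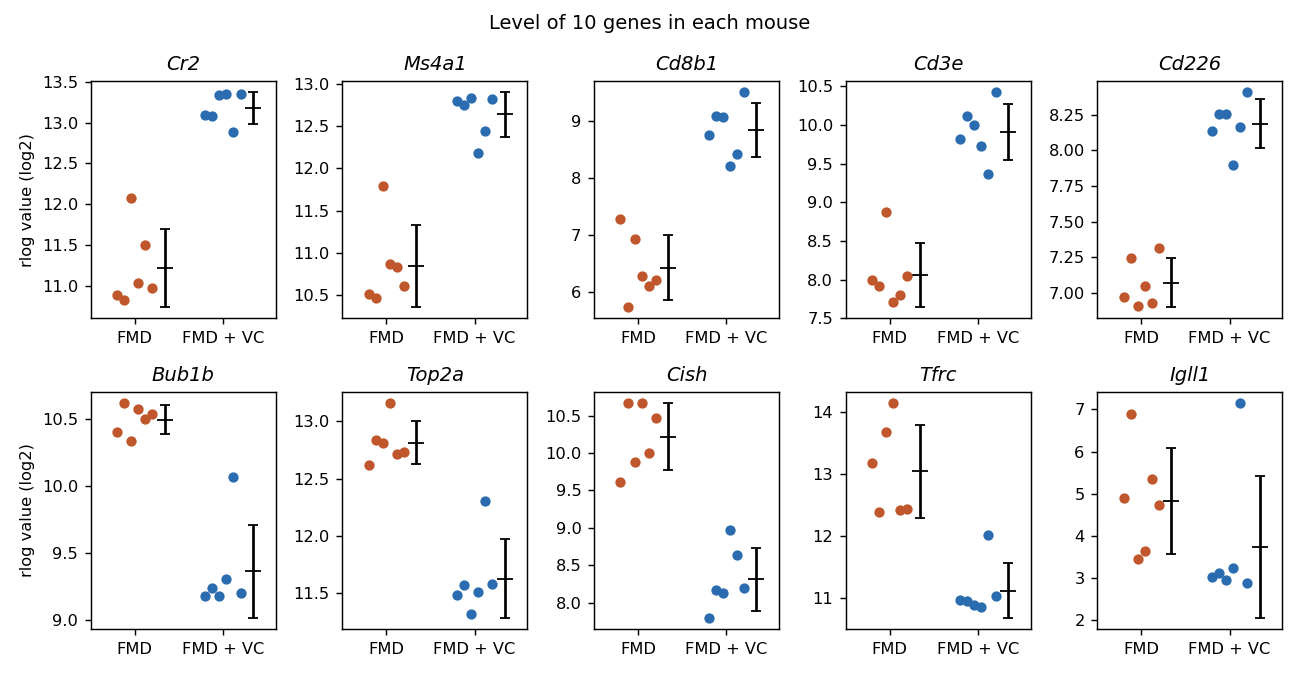
The rlog value (y axis, log2) of 10 genes in each FMD and FMD + VC mouse, ordered by mouse number, with the mean and SD of the 6 mice as a bar beside the points. Cr2, Ms4a1, Cd8b1, Cd3e and Cd226 lie higher and Bub1b, Top2a, Cish and Tfrc lower in every FMD + VC mouse, with mouse 45 the nearest to FMD in Bub1b, Top2a and Tfrc. Igll1 is low in 5 FMD + VC mice and at 7.16 in mouse 45. Cr2, Ms4a1, Cd8b1, Cd3e, Cish and Tfrc were named by a rule that requires groups without overlap.

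Genes of dividing cells fell. Of 23 genes of mitosis and the spindle checkpoint 22 fell, none rose and 1 did not pass, beside 10.9% of all tested genes that fell, with a median log2 fold change of -1.18. In 21 of them every FMD + VC mouse was below every FMD mouse, beside 5.16% of all tested genes. Without mice 9, 11, 42 and 45, 17 of the 23 fell. Bub1b, the checkpoint kinase BUBR1, was at 10.34, 10.52 and 10.63 in FMD and at 9.18, 9.22 and 10.07 in FMD + VC. The highest FMD + VC value was that of mouse 45. Bub1b was 2.20-fold lower in FMD + VC (log2 fold change -1.14, 95% interval -1.61 to -0.67, adjusted p = 0.00288).

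Top2a, the topoisomerase that separates sister chromosomes (chr11:98992943-99024189), was at 12.62, 12.77 and 13.16 in FMD and at 11.32, 11.54 and 12.31 in FMD + VC, without overlap, and was 2.27-fold lower (adjusted p = 0.00553). The kinases Plk1 and Aurkb fell by log2 values of 1.16 and 1.16, the spindle motors Kif11 and Cenpe by 1.28 and 1.33, and Ccnb1, the cyclin that starts mitosis, by 1.38. Ube2c, a ubiquitin conjugating enzyme of mitotic exit, missed the threshold (-1.11, adjusted p = 0.0506).

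Many mitotic genes carry a CCAAT box, bound by the factor NF-Y, and a CHR element, bound by the DREAM and MuvB complexes, close to their start. The promoter windows of 4 of the genes that fell are shown because they hold both motifs. They are RefSeq sequences of the build GRCm38.p6 from 250 bases before to 50 bases after the start, 5′ to 3′ on the strand of the gene, with CCAAT or its reverse complement ATTGG and TTTGAA or its reverse complement TTCAAA in capitals. Bub1b is at chr2:118597961-118598260 (+), Top2a at chr11:99024140-99024439 (-), Kif11 at chr19:37376132-37376431 (+) and Plk1 at chr7:122159185-122159484 (+).
Bub1b: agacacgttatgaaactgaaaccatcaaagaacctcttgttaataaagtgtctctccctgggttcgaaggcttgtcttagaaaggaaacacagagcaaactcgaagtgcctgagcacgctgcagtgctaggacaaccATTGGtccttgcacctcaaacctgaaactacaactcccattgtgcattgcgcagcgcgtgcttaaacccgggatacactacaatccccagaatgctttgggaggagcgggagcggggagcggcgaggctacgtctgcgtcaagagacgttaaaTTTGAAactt
Top2a: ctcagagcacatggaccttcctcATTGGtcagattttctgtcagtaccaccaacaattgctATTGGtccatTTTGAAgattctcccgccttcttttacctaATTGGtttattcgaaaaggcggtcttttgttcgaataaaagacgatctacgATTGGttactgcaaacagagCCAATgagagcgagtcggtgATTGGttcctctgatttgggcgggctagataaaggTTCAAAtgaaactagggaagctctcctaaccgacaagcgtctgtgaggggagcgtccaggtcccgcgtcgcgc
Kif11: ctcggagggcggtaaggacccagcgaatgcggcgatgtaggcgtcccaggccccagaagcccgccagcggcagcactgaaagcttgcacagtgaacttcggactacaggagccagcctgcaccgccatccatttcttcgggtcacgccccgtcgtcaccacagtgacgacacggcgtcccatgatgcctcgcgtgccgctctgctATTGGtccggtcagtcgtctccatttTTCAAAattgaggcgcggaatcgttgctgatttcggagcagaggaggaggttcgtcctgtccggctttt
Plk1: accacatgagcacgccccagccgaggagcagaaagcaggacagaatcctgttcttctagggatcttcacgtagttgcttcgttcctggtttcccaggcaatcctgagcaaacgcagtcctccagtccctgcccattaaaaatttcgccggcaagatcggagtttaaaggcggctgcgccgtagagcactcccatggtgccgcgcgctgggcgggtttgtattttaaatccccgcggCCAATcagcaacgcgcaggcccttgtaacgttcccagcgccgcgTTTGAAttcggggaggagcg
The Top2a window holds 6 CCAAT matches and 2 CHR matches, and the other 3 hold 1 of each. Of the 23 mitotic genes, 19 (82.6%) had a window by symbol, 20 windows in all. CCAAT was in 17 of these (85.0%) and TTTGAA in 14 (70.0%), counting both strands. Over all 32851 windows of the reference table the shares were 37.4% and 17.9%. No CCAAT match overlaps a TTTGAA match in the 4 windows shown. A match is a description of these letters and not of binding. Sites of E2F (TTTGGCGC, TTTCCCGC or TTTCGCGC) were in 1 of the 20 mitotic windows, against 1.84% of all windows, GATA sites (AGATAA) in 1, against 11.2%, and the octamer (ATTTGCAT) in 0, against 1.74%. The 10 B lineage factors, 90.0% of which had a window, held CCAAT in 6 and TTTGAA in 1 of 11 windows. In the other 5 lists searched, and among the genes that rose or fell, fewer than 80% had a window, and their shares are not compared.

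DNA replication genes fell in 21 of 25 cases and none rose, with a median of -0.90. Pole, the catalytic subunit of DNA polymerase epsilon, was at 10.26, 10.46 and 10.82 in FMD and at 8.97, 9.17 and 9.72 in FMD + VC, without overlap, and was 2.35-fold lower (adjusted p = 0.00251). Tyms, which makes thymidylate, fell by a log2 value of 1.30, and the helicase subunits Mcm2 to Mcm7 by 0.60 (Mcm4) to 0.90 (Mcm7). Cdc6, which loads the replicative helicase, was 2.84-fold lower. Pcna, the sliding clamp, did not pass (-0.42, adjusted p = 0.191).

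Few genes of tubulin, the target of vincristine, passed. Of 15 tubulin genes 1 rose, 1 fell and 13 did not pass, beside 12.6% of all tested genes that rose and 10.9% that fell. Tuba1a, an alpha tubulin, was at 7.26, 7.51 and 7.73 in FMD and at 7.86, 8.35 and 8.52 in FMD + VC and rose 1.69-fold without overlap (adjusted p = 0.00687). Tuba8 fell by a log2 value of 1.05, from low levels. No tubulin gene fell without FMD mouse 8, 11 or 34 or FMD + VC mouse 29, 30 or 46, while 3 fell without FMD mouse 7 or 9 or FMD + VC mouse 45 and 2 without mouse 42. Tubb5, a beta tubulin, did not pass (-0.22, 95% interval -0.50 to 0.05). Tubulin genes are close paralogs, and reads they share could be split by the counting.

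Of 20 regulators of microtubules 5 fell and 1 rose, beside 10.9% of all tested genes that fell and 12.6% that rose. Those that fell were Kif2c, a motor that takes microtubules apart at kinetochores (-1.09), Kif18a (-1.13), Tacc3 (-1.15), Stmn1 (-1.16) and the tubulin cofactor Tbcd (-0.50). Map4, which stabilizes microtubules, rose by 0.36, and 2 regulators rose without FMD mouse 7 or 9. Abcb1a, a P-glycoprotein pump that exports vinca alkaloids, rose 1.97-fold without overlap, from 6.68, 6.86 and 7.53 to 7.67, 8.00 and 8.11 (adjusted p = 0.00439). Its paralog Abcb1b was at -0.23 and did not pass, and among the other ABC transporters Abcc5 fell by 0.25, a call lost without FMD mouse 9, 11 or 26 or FMD + VC mouse 29 or 46.

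Several targets of STAT5 fell. Cish, an inhibitor of cytokine signalling induced by STAT5 (chr9:107296026-107302784), was at 9.62, 10.24 and 10.68 in FMD and at 7.79, 8.18 and 8.98 in FMD + VC, without overlap. It was 3.74-fold lower (log2 fold change -1.90, 95% interval -2.65 to -1.16, adjusted p = 0.00251). Pim1, a survival kinase, was 2.15-fold lower, and Socs2, another feedback inhibitor, 3.27-fold lower with overlapping groups. The genes Abl1 and Bcr, whose parts form the fusion, fell by log2 values of 0.68 and 0.74, and any reads of the fusion that map to them cannot be told apart from reads of the mouse genes. Over the list of 13 genes, 6 fell, none rose and 7 did not pass, among them Stat5a (0.06), Stat5b (0.24) and Myc (-0.37).

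Genes of pre-B cells and progenitors were split. Of 13 tested genes 3 fell, Myb (-1.25), Kit (-0.79) and Erg (-1.08), and 2 rose, Lef1 and Vpreb3, which T cells and mature B cells also express. Of all tested genes 10.9% fell and 12.6% rose. Erg passed in 3 of the 12 fits that left out 1 mouse. Over these fits 2 to 4 genes of the list fell and 2 to 3 rose. Igll1, a chain of the surrogate light chain of pre-B cells, was at 3.46, 4.82 and 6.89 in FMD and at 2.89, 3.08 and 7.16 in FMD + VC. In 5 of the 6 FMD + VC mice it was between 2.89 and 3.25, below every FMD mouse, and in mouse 45 it was at 7.16, above every FMD mouse. It did not pass (-1.09, adjusted p = 0.318). The recombinase gene Rag1 was at 7.66 in mouse 45 and Vpreb1, the partner of Igll1, at 6.60, each above all FMD mice, while the median of FMD + VC was 3.96 for Rag1 and 3.09 for Vpreb1.

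**Figure D4:**
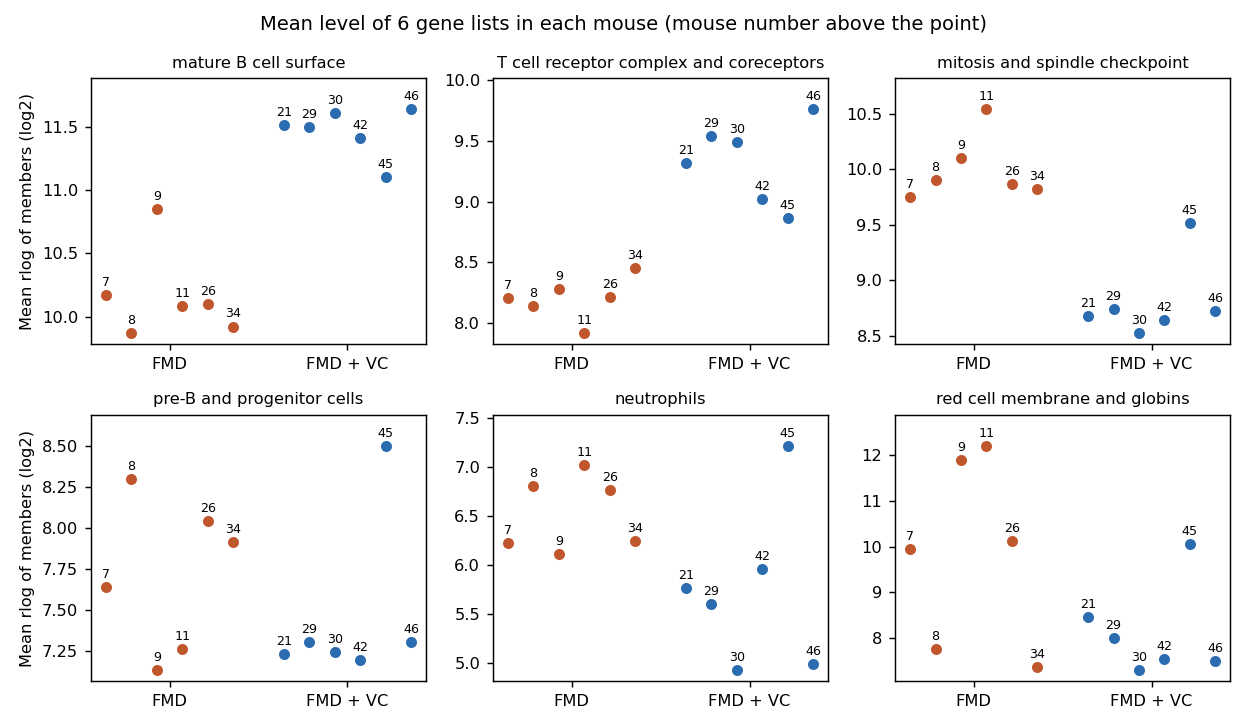
Mean rlog value (y axis, log2) of the members of 6 gene lists in each mouse, with the mouse number above each point. FMD and FMD + VC do not overlap for mature B cell, T cell receptor and mitotic genes, and mouse 45 is the highest FMD + VC mouse for mitotic, pre-B, neutrophil and red cell genes.

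Red cell genes varied widely between mice of the same group. None of 14 red cell genes passed, although the median of their log2 fold changes was -1.84 and all were below 0. Their mean rlog was 7.37, 10.04 and 12.21 in FMD, with mice 8 and 34 at the low end and 9 and 11 at the high end, and 7.31, 7.78 and 10.07 in FMD + VC, with mouse 45 at the high end. Without FMD mouse 34, 2 of them fell, and 1 did without FMD mouse 8 or FMD + VC mouse 45. Slc4a1, the anion exchanger of the red cell membrane, ranged from 8.52 to 14.25 in FMD and was at -2.26 with a 95% interval of -4.51 to -0.01 (adjusted p = 0.132).

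Of 17 erythroid regulators and enzymes of heme synthesis 3 fell, Tfrc, Nfe2 and Gfi1b, beside 10.9% of all tested genes. Tfrc, the transferrin receptor that dividing cells and erythroblasts use to take up iron (chr16:32608920-32632794), was at 12.39, 12.80 and 14.15 in FMD and at 10.85, 10.95 and 12.01 in FMD + VC, a 3.80-fold fall without overlap (adjusted p = 0.00741). The count of falls was 6 without FMD mouse 8, without FMD mouse 34 or without FMD + VC mouse 45. Its lowest value over the 12 fits that left out 1 mouse was 2. Gfi1b passed in 4 of these fits. Gata1, the master regulator of the lineage, missed the threshold (-1.75, adjusted p = 0.0543).

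Neutrophil genes had a median log2 fold change of -0.997 with 1 rise and no fall among 15. The granule and calprotectin genes were lower by point estimate but did not pass, as for S100a9 (-1.31, adjusted p = 0.137), which was at 8.01, 8.57 and 9.32 in FMD and at 6.08, 7.35 and 9.27 in FMD + VC, with mouse 45 at 9.27. The summed level of the list, as log2, was 10.57, 11.10 and 11.70 in FMD and 9.43, 10.21 and 11.70 in FMD + VC. The gene that rose was Cxcr2 (0.88), a chemokine receptor of mature neutrophils. Without mouse 45, 3 neutrophil genes and 6 of 12 megakaryocyte and platelet genes fell, against none and 1 with it, and 2 of the megakaryocyte genes fell without FMD mouse 9 or FMD + VC mouse 42. Cpa3, a mast cell protease also made by progenitors, fell 5.62-fold without overlap, from 5.22, 6.99 and 8.16 to 3.996, 4.19 and 5.13 (adjusted p = 0.00448). The other mast cell, basophil and eosinophil genes were at or under the minimum or did not pass. Of 11 markers of exocrine pancreas, which lies next to the spleen, 1 reached the minimum, and of 8 of adipocytes 3 did, and none of these passed. The pancreatic amylase gene Amy2a5 was at 0 in every mouse.

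Of the genes whose groups did not overlap, Khdc1a, Gpc5 and Onecut2 fell most. Khdc1a, a KH domain gene (chr1:21349641-21352200), was at 5.15, 7.45 and 8.56 in FMD and at 4.17, 4.28 and 5.02 in FMD + VC, and was 6.86-fold lower (adjusted p = 0.00242). Gpc5, a cell surface proteoglycan, was 6.66-fold lower and Onecut2, a homeodomain factor best known in liver, pancreas and neurons, 6.51-fold lower. Slc27a2, a fatty acid transporter, Muc13, a mucin, and the proto-oncogene Mycn were lower by 5.34-fold, 4.65-fold and 3.85-fold. Gldc, of the glycine cleavage system, was 4.92-fold lower, and in the list of serine and one-carbon metabolism Shmt2 fell with it by 0.49, 2 of 12 genes in all. The count of falls was 4 without FMD mouse 7, 5 without FMD mouse 9, 6 without FMD + VC mouse 45 and 1 without each of the other 9 mice, while 1 gene rose without mouse 7 or 45. The genes with the largest changes were named only if the groups did not overlap, so their lack of overlap is no finding. Shmt2 was named as a member of its list and its groups overlap.

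The other large rises without overlap were Tdrp (4.68-fold), Fcamr, an Fc receptor for IgA and IgM (4.32-fold), Igfbp5, a binding protein of insulin-like growth factors (4.05-fold), Ms4a4b, of T cells (4.04-fold) and Art2b, an ADP-ribosyltransferase of mouse T cells (3.50-fold). The smallest adjusted p-values after Cd226 belonged to Sapcd1, which fell by 1.28, and Klra13-ps, Pxdc1, Rasgef1b, Zfp583 and Ly6k, which rose by 1.74, 1.45, 1.42, 0.99 and 1.38. Wdr90, a centriole gene, fell by 0.92.

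Among genes of stress and death, calls were made in both directions, to be read beside the 12.6% of all genes that rose and the 10.9% that fell. Of 20 p53 targets 1 rose, Fas (0.69), and 2 fell, Perp (-0.94) and Pmaip1 (-0.52), while Cdkn1a, which codes for the cell cycle inhibitor p21, did not pass (-0.27, adjusted p = 0.479). The rises were 2 without FMD mouse 26 or 34 or FMD + VC mouse 42, and the falls were 1 with any mouse but FMD mouse 9 or 11 or FMD + VC mouse 45 left out. In the BCL2 family 2 of 16 rose and 4 fell. Mcl1, a survival protein, rose 1.56-fold and Bcl2l2 fell 1.40-fold, and both passed in all 12 fits that left out 1 mouse. Only 1 member of the family rose with any mouse but FMD mouse 7 left out, and 1 or 2 fell with any but FMD mouse 9 or FMD + VC mouse 45 left out. Immediate-early genes rose in 6 of 12 cases with none falling, led by Egr3 (2.82-fold), Egr2 and Egr1 (log2 1.10 and 1.02), which antigen receptor signals and tissue handling can both induce. Of 12 heat shock chaperones 1 rose, Hspb1 (0.88), against 0 without FMD mouse 7 or 34 or FMD + VC mouse 21, 29 or 45, 2 without mouse 30 and 3 without mouse 42.

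Among metabolic lists, too, calls were made in both directions, and most of their counts moved when 1 mouse was left out. They are to be read beside the 12.6% of all tested genes that rose and the 10.9% that fell, and most lie near these shares. Of 30 autophagy genes 3 rose and 3 fell, with a median of 0.00. Pik3r4, a subunit of the lipid kinase that starts autophagosomes, rose by 0.49 without overlap (adjusted p = 0.00273). The other 5 that passed were Map1lc3a (0.51), Atg3 (0.34), Atg9b (-0.86), Atg9a (-0.50) and Atg14 (-0.25). Only 1 autophagy gene rose without FMD mouse 8 or 34 or FMD + VC mouse 21 or 46, at most 1 fell with any mouse but FMD mouse 9 or FMD + VC mouse 42 or 45 left out, and Atg9a passed in 0 of the 12 fits. In the lysosome 5 of 22 genes rose and none fell, but 2 rose without FMD mouse 11 and 2 fell without FMD mouse 9. Glycolysis had 2 rises and 3 falls among 15, with at most 1 rise with any mouse but FMD mouse 9 left out. Oxidative phosphorylation had 2 falls among 19, and at most 1 with any mouse but FMD mouse 7 or FMD + VC mouse 45 left out. Of 16 genes of the fasting response and fat oxidation 2 fell, Fkbp5 (-1.42, adjusted p = 0.00251) and Zbtb16 (-0.78), both known targets of the glucocorticoid receptor, and Tsc22d3, another such target, did not pass (-0.20). The falls were 4 without FMD + VC mouse 42 or 45 and 1 without FMD mouse 8, 26 or 34 or FMD + VC mouse 21, 29, 30 or 46, and 1 gene rose without FMD mouse 9. Of 19 cholesterol synthesis genes 1 rose, Srebf2 (0.35), and 0 without FMD mouse 26 or 34 or FMD + VC mouse 21, 29, 30 or 46. Of 18 interferon-stimulated genes 3 rose and none fell, but 0 rose without FMD mouse 11, 1 without FMD mouse 8 or 34 or FMD + VC mouse 21, 29, 30, 42 or 46, and none passed in every such fit.

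Whether the diet changed the effect of vincristine was asked with the interaction of diet and vincristine in the same fit. No gene passed (0%), with 504 genes at an unadjusted p under 0.05 and a smallest adjusted p of 0.925. With library weights, which let noisier libraries count less, 301 genes passed as more positive with the diet and 356 as more negative. Between AL + VC and AL, which share no mouse with the comparison above, 1068 genes (6.45%) passed, of which 649 rose (3.92%) and 419 fell (2.53%). Across the 16557 genes the log2 fold changes with and without the diet had a Pearson correlation of 0.864 and a Spearman correlation of 0.813, as a description over genes, which are not independent. Of the 3888 calls with the diet 97.8% had the same sign without it, beside 80.3% of all tested genes. The median size of change of these calls was 0.65 with the diet and 0.45 without it. They were chosen by the test with the diet, which favours a larger change there. These sizes therefore cannot show whether the diet changed the effect. Of the genes called in AL + VC against AL, 78.9% were called with the diet too, and these 843 genes were 21.7% of the calls with the diet.

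For the lists, mature B cell genes had a median log2 fold change of 1.28 with the diet and 1.10 without it, with 15 and 12 rises. The T cell receptor list had 1.09 and 0.54, with 8 and 2 rises, MHC class II 1.16 and 0.75, with 10 and 2, and mitosis -1.18 and -0.91, with 22 falls and 1. These counts are not shown to differ, since no interaction passed in the unweighted fit. For Cd8b1 the change was 2.42 with the diet and 1.80 without it, and the difference of 0.62 had a 95% interval of -0.82 to 2.06.

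The smallest interaction p-values were those of Tmem79, Snord15a, Ly6k, mt-Tl2 and mt-Nd6. Ly6k, a gene of the Ly6 family, rose by 1.38 with the diet and was at 0.10 without it (interaction 1.28, adjusted p = 0.925). Tmem79, a membrane protein gene, fell by 0.47 with the diet and was at 0.38 without it. Xcr1 was at 1.74 and 0.69. In the cholesterol synthesis list the median was 0.10 with the diet and -0.27 without it. Of its 19 genes 6 had an unadjusted interaction p under 0.05, beside 504 of all 16557 tested genes. None of them passed after adjustment.

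**Figure D5:**
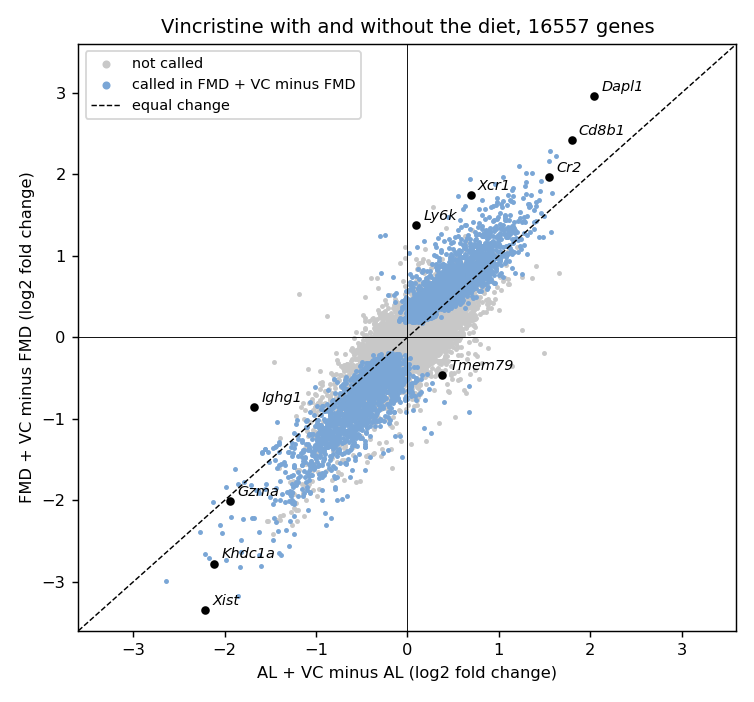
Log2 fold change of each of 16557 genes between AL + VC and AL (x axis) and between FMD + VC and FMD (y axis), with genes called in the latter in blue and a dashed line of equal change. The changes lie along the line (Pearson correlation 0.864), and no gene passed the unweighted test of the difference between them.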

How the data were processed

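RNA was taken from whole spleens of 24 mice in 4 groups of 6, and 1 single-end library was sequenced per mouse after ribosomal RNA had been removed. Per the study's methods, reads were aligned with HISAT2 (version 2.1.0) to GRCm38 and counted per gene with HTSeq (0.6.1, intersection-strict mode). The authors deposited regularized log2 values (rlog, from DESeq2) for 46078 genes, and no counts were used here. The sources used here do not give the strand setting. The rlog transform draws genes with few reads toward their mean over all libraries, so fold changes of low genes are understated. Without counts the depth of each library is unknown, no interval from counting could be given, and precision rests on the spread between mice, 1 library each.

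Groups came from the treatment labels. A gene was tested where its mean rlog over the 24 mice reached 3.32 (16557), and 13174 genes were at 0 throughout. One coefficient per group was fitted with limma (3.58.1, R 4.3.3, eBayes with a mean-variance trend, 20 residual degrees of freedom), and p-values were adjusted after Benjamini and Hochberg over all tested genes at 0.05. The comparisons were FMD + VC minus FMD, AL + VC minus AL, and their difference. Fold changes in the text are 2 to the power of the fitted difference of rlog values, and intervals cover 95%. The fit was tested on simulated data.

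The groups and gene lists were chosen with earlier results of these data known. Genes were named by rule from the 15 largest rises and 15 largest falls without overlap between groups and the 10 smallest adjusted p-values. The 5 smallest interaction p-values and the genes with the largest SD within a group were added. These sets left out predicted, clone-named and duplicated genes and receptor segments. From each list came the 5 members with the smallest adjusted p, and every tested immunoglobulin constant region gene, Xist and the Y-linked genes. Further list members, both passing and not, were named outside this rule. Rows with a duplicated name (126) or a date as name (21) were tested but not named, and for 5 list members with a second row at 0 the other row was used. Coordinates are from GENCODE vM21 (GRCm38) and promoter windows from RefSeq (GRCm38.p6), matched by symbol. Alternatives were other minimums, quantile normalization, library weights, a fit of the 12 mice alone, no trend, the level of Xist as a covariate, and leaving out mice. Lists and figures were made with Python 3.11.15, pandas 2.3.3, numpy 2.4.6 and matplotlib 3.10.9.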

Additional observations from a re-analysis of the deposited data

Results flagged for a closer look

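In several genes and gene lists 1 mouse stood far from the other 5 of its group by Dixon's test. It was applied to both groups for each named gene and list, 424 series in all, of which 68 exceeded the critical value. For groups picked without regard to spread, chance alone exceeds it in about 1 of 20. That rate does not hold for this count. Some genes, Igll1 and Rag1 among them, were named for a large SD within a group, and list means share values with their members. Mouse 45 accounted for 31 of the 68 and mouse 9 for 18. Values are rlog (log2).

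Within FMD + VC, mouse 45 was far above the others in Bub1b (10.07), Cenpe (10.16), Kif11 (10.50), Kif2c (8.28), Plk1 (8.85), Top2a (12.31) and Ube2c (9.09) of mitosis, in Mcm2 (10.65), Mcm4 (10.77), Mcm7 (10.62) and Tyms (8.34) of replication, in Erg (8.95), Igll1 (7.16), Myb (10.37), Rag1 (7.66) and Vpreb1 (6.60) of progenitors and pre-B cells, and in Shmt2 (10.44) and Tfrc (12.01). Its list means were far above the others for pre-B and progenitor cells (8.50), erythroid regulators (8.87), mitosis (9.52), DNA replication (9.27) and serine and one-carbon metabolism (8.24). The same mouse was far below the others in Cd22 (12.11), Ciita (11.22), Egr3 (6.98), Igfbp5 (9.44), Ikzf3 (11.76), Irf8 (11.97), Pdcd1lg2 (6.17) and Pxdc1 (8.90).

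Within FMD, mouse 9 was far above the others in Bach2 (10.92), Cd79a (11.23), Cd79b (11.70), Fcamr (6.69), Fcer2a (9.72), Ighd (12.60), Iglc2 (10.06), Ikzf3 (11.88), Ms4a1 (11.79) and Pax5 (12.46), mostly genes of the B lineage, in Cd209a (4.89), Cd3e (8.87), Mcl1 (12.78) and Pik3r4 (10.12), and in the mean of the mature B cell surface list (10.85). It was far below them in Stmn1 (7.18), Tubb5 (13.22) and Xist (12.43). Mouse 11 was apart in Cdkn1a (8.22), Mcm2 (11.55), Mcm7 (11.46), Tyms (9.65) and the mean of the microtubule regulators (9.33), all high, and in Clec9a (6.28) and Prdm1 (7.10), both low.

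Mouse 7 was high in Bcl11a (12.76), Cd4 (11.49), Irf8 (13.58), Siglech (11.41) and the mean of the dendritic cell list (8.37), mouse 8 in the mean of the adipocyte list (7.69), and mouse 34 in Zbtb16 (8.70). In FMD + VC, mouse 42 was high in Pik3r4 (10.55), Tmem79 (3.74) and mt-Tl2 (3.79), mouse 30 low in Pmaip1 (8.88) and mouse 46 low in Abcc5 (9.64).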

How the results depend on the processing

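The counts of genes that rose (2085) and fell (1803) stayed within 1.5 times under other minimums, quantile normalization, a fit of the 12 mice alone and a fit without trend. Leaving out 1 mouse gave 1483 (without FMD mouse 11) to 2237 rises and 1257 (without FMD + VC mouse 21) to 2110 falls. Without FMD mice 9 and 11 they were 1715 and 1712, without FMD + VC mice 42 and 45 they were 2034 and 1788, and without all of these 1691 and 1675, settings chosen after seeing the data. With library weights they were 4657 and 4682, and the interaction, with no call in the unweighted fit, had 301 and 356. With Xist as a covariate 1 gene rose and 0 fell, and 3526 of the 3888 calls kept their sign. The median size of change over the 3888 calls was then 0.25, against 0.65 in the main fit. Without a minimum the AL + VC minus AL counts were 316 and 179 against 649 and 419. The cause of these changes was not tested. No paired analysis was possible because mouse numbers differ between groups.

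Some named genes changed sign. With Xist as a covariate the log2 fold change was 0.23 for Abcb1b, 0.15 for Atg9b, 0.11 for Bcr, -0.17 for Cd4, -0.045 for Ddx3y, -0.18 for Egr1, -0.027 for Eif2s3y, -0.0020 for Eomes, 0.39 for Erg, -0.24 for Ighg2b, 1.57 for Igll1, 0.27 for Il2ra, 0.22 for Il7r, -0.043 for Irf8, 0.75 for Jchain, -0.038 for Map1lc3a, 0.12 for Myb, 0.40 for Myc, 1.79 for Rag1, 0.75 for S100a9, 0.031 for Shmt2, 0.41 for Socs2, -0.041 for Stat5a, -0.13 for Stat5b, 0.15 for Stmn1, 0.20 for Tuba8, 0.087 for Tubb5 and 1.71 for Vpreb1. Ighe was at 0.61 with library weights, 0.15 without mice 42 and 45 and between -0.60 and 0.043 with 1 mouse left out. Ighg2c was at 0.11 without mice 42 and 45 and between -0.34 and 0.21 with 1 mouse left out. Ighg2b was at -0.15 without mice 9 and 11. Siglech was at -0.21 without mice 9 and 11, -0.11 without these and mice 42 and 45, and between -0.0037 and 0.79 with 1 left out. Il7r was between -0.28 and 0.013 with 1 mouse left out. Tcf7 was at 0.14 without mice 42 and 45 and between -0.29 and 0.073 with 1 mouse left out.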

Other observations

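The noncoding gene Gm26917 was not named by the rule and was looked at for its level alone. Taking each rlog value back from the log2 scale, it made up between 11.2% and 30.4% of the sum over all tested genes in a library. The highest shares were in FMD mouse 9 (30.4%) and FMD + VC mouse 42 (30.1%).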
